A study of Drosophila melanogaster with 2 samples.

Results

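The genes described here encode the insulator and architectural proteins of Drosophila melanogaster and the promoter factor Dref. There are 10 of them among 13945 protein-coding genes on the 6 chromosome arms: BEAF-32, CTCF, su(Hw), Ibf1, Ibf2, Dref, Cp190, mod(mdg4), Chro and pzg. They were chosen by name with their peaks, signals and ranks in these data already known, so these values are given as a description, with no test. A region was given to a gene when its summit lay within 1000 bp of an annotated transcription start site (TSS) of the gene or inside the gene. The data are ChIP-seq region lists for Lbe, a homeodomain factor with a part in heart and muscle development, from whole embryos 0 to 24 h old with males and females pooled. All embryos came from 1 transgenic line, lbe-GFP, that stably expresses Lbe with GFP at its C-terminus, and chromatin was precipitated with an antibody to GFP. There was 1 group with 2 biological replicates and no second condition, and the control named for the experiment was not analysed here. The line carries a tagged transgene and whole embryos mix all cell types, so the cells behind a region are not known.

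Insulator proteins bind DNA at the borders of chromatin domains and at promoters, where they help to hold distant sites together or to separate enhancers from the wrong promoters. In flies BEAF-32, CTCF, su(Hw), Ibf1 and Ibf2 bind DNA themselves, and Cp190 and mod(mdg4) join them as cofactors that carry BTB domains. Dref binds the DNA replication-related element (DRE) at promoters of housekeeping genes, and BEAF-32 binds the CGATA core that lies within this element. Chro and pzg (also called Z4) are proteins of open interband chromatin on polytene chromosomes, and both are found at many of the same promoters.

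All positions are in the dm6 genome build. The authors kept 4782 peaks at a threshold of the irreproducible discovery rate, here called IDR peaks, and 4753 of these were on the chromosome arms. The pooled list and each replicate list held 29999 regions, weak and background regions included. Each region carries a signal from the authors' peak caller. Its scale is not given in the sources used here, so signals are compared only within a list, and ranks run from 1, the strongest. The rank of an IDR peak is its place in the IDR list, and the rank of any other region is its place in the list named. These ranks include mitochondrial regions, of which the IDR list held 29. The median IDR signal was 147, and on the arms the lowest was 98.7 and the highest 1790.2. Replicate regions were matched by a summit within 200 bp, and the 4782 strongest regions of each replicate, as many as there are IDR peaks, are called its strongest set. The files hold no read counts, so the depth behind each region is unknown and no error can be put on a single signal; the value in each replicate is given in its place.

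The DRE word or its CGATA core lay near the summit or the start of several of the genes. Over whole regions, 51.8% of IDR peaks within 1000 bp of a protein-coding TSS held CGATA and 11.4% the DRE. At 6 genes the site, picked after it was found, is printed so that the letters at these promoters can be compared. Each is 30 bases, read 5′ to 3′ along the gene, which lies on the minus strand in every case, from the RefSeq release 6 genome sequence, with the word in capitals.
CTCF: accaatcgaacTATCGATAgctggcggtac
Cp190: tatcgcatggcTATCGATAgctgccgagcg
mod(mdg4): atattttaagcTATCGATAtattgtcactt
Ibf2: cgatggcatgtTATCGATAcatcggttgaa
Dref: aaatttccccagcTATCGattggtgatgca
Chro: gttagtttaaagcTATCGacaggcaataca
They lie at chr3L:7356716-7356745, chr3R:15275227-15275256, chr3R:21377437-21377466, chr3R:9258490-9258519, chr2L:9967230-9967259 and chr3L:22878880-22878909. The first 4 hold the whole DRE, TATCGATA, which reads the same on both strands and so holds CGATA on each. Dref and Chro hold CGATA alone, printed here as its reverse complement TATCG. The DRE was centred 18 bp upstream of the TSS at CTCF, 1 bp upstream at Cp190, 51 bp upstream at mod(mdg4) and 4 bp upstream at Ibf2. The CGATA core lay 15 bp upstream of the TSS at Dref and 90 bp downstream of it at Chro. The CTCF, Cp190, mod(mdg4), Dref and Chro sites each lay in an IDR peak, and the Ibf2 site lay in a pooled region below the IDR list. Other sites are not printed, among them a DRE 206 bp upstream of the first BEAF-32 TSS and a CGATA core 177 bp upstream of the pzg TSS. A match describes the letters and shows no binding by Dref or BEAF-32.

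IDR peaks were present at 7 of the 10 genes, against 26.8% of all protein-coding genes, and each of the 7 had one within 1000 bp of a TSS (24.4% of all genes). The genes with a peak were Chro, Cp190, mod(mdg4), Dref, BEAF-32, CTCF and pzg, in order of signal; su(Hw), Ibf1 and Ibf2 had none. Since this measure was in view when the genes were chosen, the share is not evidence about them as a group. The 7 genes held 12 IDR peaks, of which 5 were in mod(mdg4), 2 in BEAF-32 and 1 in each other gene; 6.94% of all protein-coding genes had 2 or more. The strongest IDR peak of the 7 had a median signal of 223, against 161 over the 3738 protein-coding genes with such a peak. All 10 genes had a region in the pooled list, as did 54.0% of all protein-coding genes, and the strongest such region had a median signal of 154 in the 10 genes, against 98.1 in the 7525 genes with one.

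**Figure D1:**
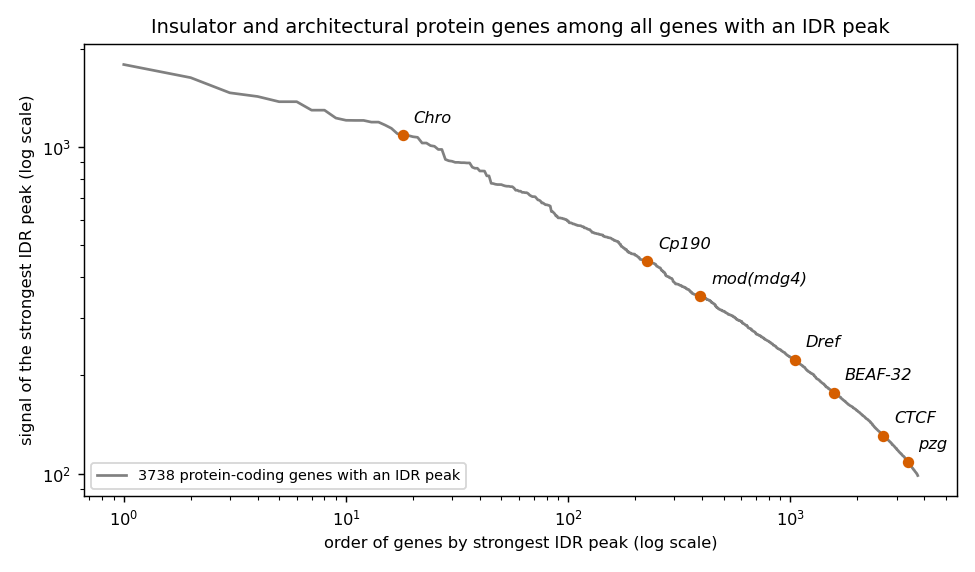
Protein-coding genes with an IDR peak, ordered by the signal of their strongest peak (x axis, log scale) against that signal (y axis, log scale); the line holds 3738 genes and the points are 7 insulator and architectural protein genes. Chro stands at place 18, Cp190 at 226 and mod(mdg4) at 392, while CTCF and pzg lie in the lower part of the curve at places 2615 and 3365.

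The 2 replicates supported these genes to different degrees. In the strongest set of replicate 1 a region lay at 8 of the 10 genes (28.5% of all genes), with su(Hw) added to the 7 above. In that of replicate 2 a region lay at 6 (24.2% of all genes), without su(Hw) and pzg. Chro, BEAF-32, CTCF, Cp190, mod(mdg4) and Dref were in both sets, against 19.3% of all genes. In the full lists all 10 genes had a region in replicate 1 (58.9% of all genes) and in replicate 2 (54.6% of all genes). Of the 12 IDR peaks, 12 had a region within 200 bp in replicate 1 and 9 in replicate 2. Over all IDR peaks on the arms, 94.6% were matched in both replicates, 1.07% had no match in replicate 1 and 4.33% had none in replicate 2. By rank, 6 of the 12 peaks were in the strongest sets of both replicates (59.2% of all IDR peaks on the arms). Of the others, 5 were in that of replicate 1 alone and 1 in that of replicate 2 alone. The shares of all IDR peaks in 1 strongest set alone were not computed, so this split is not read as a trait of these genes.

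**Figure D2:**
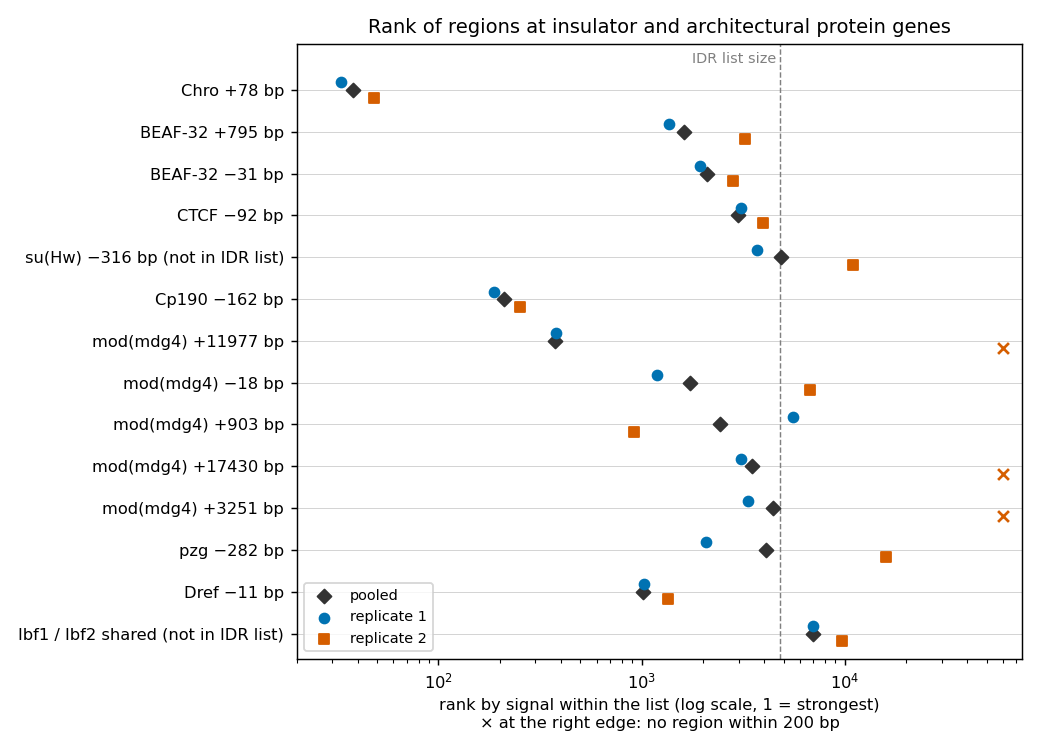
Rank by signal (x axis, log scale, 1 = strongest) of each IDR peak, and of the strongest pooled region of genes without one. Diamonds, labelled pooled, are ranks in the IDR list for IDR peaks and in the pooled list for the other regions. Circles are ranks in replicate 1 and squares are ranks in replicate 2. The distance to the first TSS stands beside the gene name, except for the Ibf1 and Ibf2 pair. Chro and Cp190 rank high in every list, the 3 crosses mark mod(mdg4) peaks with no region of replicate 2 within 200 bp, and the dashed line marks rank 4782.

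Among the DNA-binding insulator genes, BEAF-32 (FBgn0015602, 2R, 14770469 to 14772630, plus strand) had a pair of IDR peaks, each just before a TSS. The stronger (14771059 to 14771468) had a signal of 177 at rank 1612, with its summit 37 bp upstream of the third annotated TSS, at 14771301. It was matched at 125 signal, rank 1358, in replicate 1 and at 54.1 signal, rank 3227, in replicate 2. The other (14770233 to 14770642) had a signal of 157 at rank 2089 and its summit 31 bp upstream of the first TSS. Its matched signals were 104 at rank 1937 in replicate 1 and 58.3 at rank 2807 in replicate 2. Both BEAF-32 summits also fell in an exon of the antisense gene asRNA:CR42254, which has several TSSs, the nearest of them 31 bp from the stronger summit and another 168 bp from the other summit; fragments at this place cannot be told apart between the strands. The peak at the first TSS held a DRE 206 bp upstream of that TSS and 175 bp from the summit.

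CTCF, the fly counterpart of the vertebrate insulator factor (FBgn0035769, 3L, 7353578 to 7356713, minus strand), had 1 IDR peak (7356600 to 7357009) of signal 131 at rank 2991. Its summit lay between genes, 92 bp upstream of the TSS and 74 bp from the DRE printed above. The matched signals were 82.7 at rank 3094 in replicate 1 and 48.4 at rank 3963 in replicate 2, within the strongest set of each. The TSS of asRNA:CR45822 lay 804 bp from this summit, and no other protein-coding gene had a TSS within 1000 bp.

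The gene of su(Hw), the zinc finger protein that binds the gypsy insulator (FBgn0003567, 3R, 14304455 to 14308589, minus strand), fell just short of the IDR list. Its strongest pooled region (14308700 to 14309109) had a signal of 97.9 at rank 4847, while the weakest IDR peak had 98.7 and the weakest IDR peaks of the 10 genes had 104 at mod(mdg4) and 109 at pzg. The summit lay between genes, 316 bp upstream of the su(Hw) TSS and 184 bp from the divergent TSS of Polr2I, which encodes a subunit of RNA polymerase II. The replicates differed at this place, with 74.8 at rank 3709 in replicate 1 and 23.1 at rank 10961 in replicate 2. A second region (14308121 to 14308530), in the 5′ UTR of su(Hw), had a pooled signal of 78.7 at rank 6691 and stood at rank 10236 in replicate 1 and 5168 in replicate 2. Replicate 1 thus ranked the region between the genes higher and replicate 2 the region in the 5′ UTR. The sequence around the first summit, chr3R:14308785-14309024 on the plus strand, is shown because a core word of the su(Hw) site, TGCATA, lies in it with a pair of homeodomain words, TAATTA, all in capitals.
su(Hw) and Polr2I: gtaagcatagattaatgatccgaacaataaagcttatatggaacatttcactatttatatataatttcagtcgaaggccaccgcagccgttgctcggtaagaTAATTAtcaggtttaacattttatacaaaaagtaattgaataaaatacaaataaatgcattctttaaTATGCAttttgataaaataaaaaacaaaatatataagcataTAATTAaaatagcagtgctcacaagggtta
The TGCATA word is printed on the strand that reads TATGCA. Beyond the printed stretch the same region held Motif 1, GGTCACAC, 189 bp from the summit. Over whole regions, 21.5% of IDR peaks on the arms held TGCATA, 23.0% TAATTA and 4.67% GGTCACAC.

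Ibf1 and Ibf2, BED finger proteins that bring Cp190 to DNA, are encoded by neighbouring genes on opposite strands of 3R (Ibf1, FBgn0037670, 9258964 to 9260400, plus strand; Ibf2, FBgn0037669, 9257727 to 9258501, minus strand). They share 1 region between them (9258339 to 9258748), with a pooled signal of 76.9 at rank 6947. Its summit lay 43 bp upstream of the Ibf2 TSS and 420 bp upstream of the Ibf1 TSS, so the region is nearer to Ibf2 but falls under both genes by the rule used here. It was matched at 50.9 signal, rank 6960, in replicate 1 and at 25.7 signal, rank 9684, in replicate 2, outside the strongest set of each. Weaker pooled regions lay in an intron of Ibf1 (signal 51.7, rank 11589) and in the 3′ UTR of Ibf2 (signal 34.2, rank 18107). The stretch from the Ibf2 start towards Ibf1, chr3R:9258502-9258741 on the plus strand, is shown because it holds most of the region outside the Ibf2 transcript, the summit included; CGATA and TAATTA words are in capitals.
Ibf2 and Ibf1: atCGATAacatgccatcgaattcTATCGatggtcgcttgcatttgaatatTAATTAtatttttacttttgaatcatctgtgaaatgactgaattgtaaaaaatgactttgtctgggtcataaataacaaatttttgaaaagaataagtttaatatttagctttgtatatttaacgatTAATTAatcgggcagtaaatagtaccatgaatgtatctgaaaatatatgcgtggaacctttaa
The first capitals are the CGATA core at the end of the DRE, whose first base lies in the Ibf2 transcript and is not shown.

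Dref (FBgn0015664, 2L, 9964147 to 9967229, minus strand) shared its IDR peak with a ribosomal protein gene. The peak (9967035 to 9967444) had a signal of 223 at rank 1019, with the summit 11 bp upstream of the Dref TSS and 73 bp from the divergent TSS of RpL13. It was matched at 144 signal, rank 1032, in replicate 1 and at 82.9 signal, rank 1351, in replicate 2, close to the pooled rank in both. The summit of replicate 1 lay 3 bp upstream of the Dref TSS and that of replicate 2 lay 101 bp upstream, on the RpL13 side. The whole stretch between the genes, chr2L:9967230-9967312 on the plus strand, is shown because the CGATA core, in capitals, lies 4 bp from the summit.
Dref and RpL13: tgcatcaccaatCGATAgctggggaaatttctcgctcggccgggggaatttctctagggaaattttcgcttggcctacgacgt

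The cofactor genes, Cp190 and mod(mdg4), had higher top signals in the IDR list than any of the genes for DNA-binding proteins above. For mod(mdg4) this rests on an internal peak with no region of replicate 2 within 200 bp. Its strongest peak matched in both replicates had a signal of 171, below 223 at Dref and 177 at BEAF-32. Cp190 (FBgn0000283, 3R, 15270432 to 15275241, minus strand), the BTB and zinc finger protein shared by most fly insulator complexes, had 1 IDR peak (15275219 to 15275564) of signal 447 at rank 209, with 4.35% of all IDR peaks stronger. Among IDR peaks on the arms alone its rank was 183. It was matched at 305 signal, rank 187, in replicate 1 and at 158 signal, rank 252, in replicate 2, so both libraries placed it alike. The summit lay between genes, 162 bp upstream of the Cp190 TSS and 119 bp from the divergent TSS of CG4338. Replicate 2 split the place into summits 103 bp and 304 bp upstream of the Cp190 TSS, the second with a signal of 53.4 at rank 3318. The DRE printed above lay at the Cp190 TSS itself, 161 bp from the pooled summit. Within 100 bp of that summit 75.6% of bases were A or T, against a median of 64.2% over all IDR peaks on the arms.

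The gene of mod(mdg4) (FBgn0002781, 3R, 21350846 to 21377401, minus strand), 26556 bp long, had 5 IDR peaks, a number reached by 0.803% of all protein-coding genes. The rule counts every summit inside a gene, and this share was not matched for gene length. The mod(mdg4) gene encodes many proteins that share a BTB domain and differ at their ends, one of them a part of the gypsy insulator complex with su(Hw) and Cp190. The shared exons are joined by trans-splicing to separate transcripts, and the annotation lists 23 such units, named pre-mod(mdg4), inside the gene, 9 on the plus strand and 14 on the minus strand. They begin at 6 places.

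The strongest of the 5 peaks lay deep inside the gene and not at its promoter. It (21365286 to 21365548) had a signal of 349 at rank 375, with its summit 11977 bp into mod(mdg4), in an intron, and in the 5′ UTR of pre-mod(mdg4)-E, 64 bp from the start of that unit. Starts of other units lay 134 bp and 185 bp from this summit. Replicate 1 had the region at 228 signal, rank 378, while replicate 2 had no region within 200 bp. Among the 400 strongest IDR peaks on the arms, 3 (0.75%) lacked a region in replicate 2, and this peak was one of them. The part of the peak beside the unit starts, chr3R:21365291-21365378 on the plus strand, is shown because it is free of annotated UTR; TAATTA is in capitals, and the summit lies 46 bp beyond its end. In the part not shown, TGCATA lay 12 bp from the summit on the plus strand and 10 bp from it on the minus strand.
mod(mdg4), internal: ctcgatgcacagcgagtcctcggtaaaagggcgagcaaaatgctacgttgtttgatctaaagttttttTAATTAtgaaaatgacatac

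Another pair of internal mod(mdg4) peaks had the same support. The peak at 21359766 to 21360175 had a signal of 119.8 at rank 3484, 17430 bp into the gene, with unit starts 203 bp and 205 bp from its summit, and stood at 82.8 signal, rank 3092, in replicate 1. The peak at 21373945 to 21374354 had a signal of 104 at rank 4411, 3251 bp into the gene and 575 bp from the nearest unit start, and stood at 78.9 signal, rank 3348, in replicate 1. Neither had a region of replicate 2 within 200 bp. The 3 peaks without a replicate 2 region within 200 bp were thus the 3 that lay over 1000 bp inside the gene. They lay from 64 bp to 575 bp from places where pre-mod(mdg4) units begin. The remaining 2 peaks, at the start of the gene, were matched in both replicates.

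At the mod(mdg4) promoter the peak (21377214 to 21377623) had a signal of 171 at rank 1738, with its summit 18 bp upstream of the TSS. It was matched at 134 signal, rank 1188, in replicate 1 and at 34.6 signal, rank 6709, in replicate 2. A peak in the first part of the gene (21376293 to 21376702, signal 146, rank 2436), in an intron 903 bp downstream of the TSS, was higher in the other library, at 58.9 signal, rank 5552, in replicate 1 and 97.5 signal, rank 919, in replicate 2. These summits lay 921 bp apart, and their order by rank was opposite in the replicates. The promoter stretch, chr3R:21377402-21377623 on the plus strand, is shown because it holds the DRE 33 bp from the summit and a further CGATA core, both in capitals; the core is printed on the strand that reads TATCG, and a TAATTA word 131 bp from the summit is left in lower case.
mod(mdg4), promoter: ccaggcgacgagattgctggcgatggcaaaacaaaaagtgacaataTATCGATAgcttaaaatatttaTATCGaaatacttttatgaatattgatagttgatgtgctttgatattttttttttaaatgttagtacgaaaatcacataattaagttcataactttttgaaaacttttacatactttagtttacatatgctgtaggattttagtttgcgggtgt

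**Figure D3:**
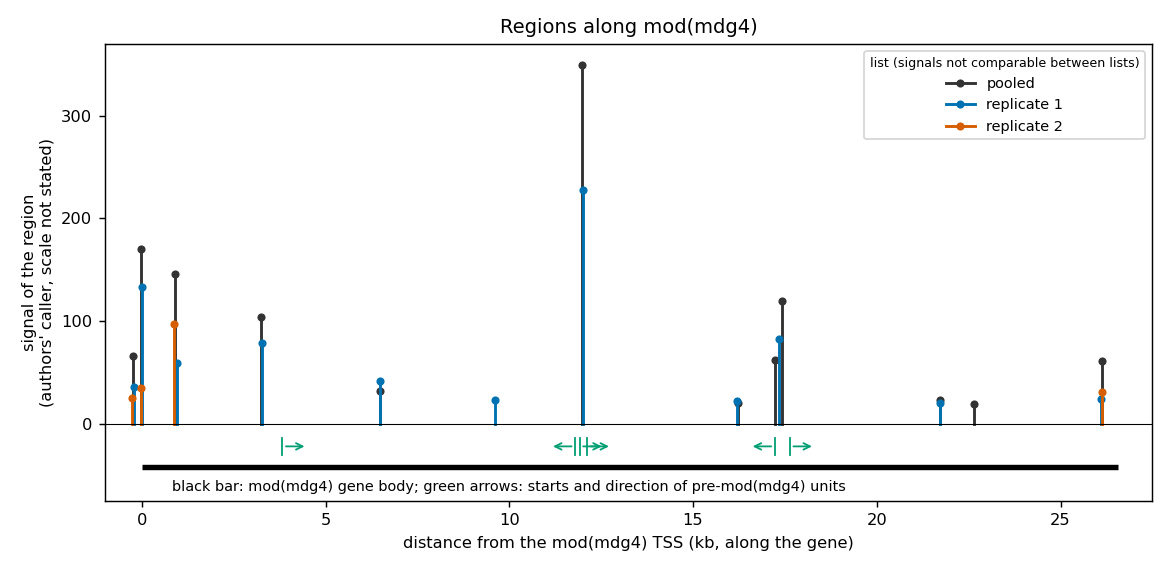
Signal of every region (y axis, authors' peak caller, scale not stated) along mod(mdg4) by distance from its TSS (x axis, kb) in the pooled list (black), replicate 1 (blue) and replicate 2 (orange); arrows mark the starts and direction of pre-mod(mdg4) units. Replicate 2 has regions near both ends of the gene and none in between, while the tallest region, of pooled signal 349, lies 11977 bp into the gene beside unit starts.

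Of the interband genes, Chro (FBgn0044324, 3L, 22873702 to 22878984, minus strand), a chromodomain protein, had the strongest peak of the 10 genes. The peak (22878714 to 22879121) had a signal of 1086 at rank 38, with 0.774% of all IDR peaks stronger, and stood at place 18 among the 3738 protein-coding genes. Among IDR peaks on the arms alone its rank was 16. Replicate 1 had it at 739 signal, rank 33, and replicate 2 at 349 signal, rank 48. Its summit lay in the 5′ UTR of Chro, 78 bp downstream of the first TSS and 183 bp from the divergent TSS of Ssl1, which encodes a subunit of the transcription factor TFIIH. The CGATA core printed above lay 12 bp from this summit. A further 5 pooled regions in the gene were far weaker, from rank 16043 to rank 26343, so the one strong region of the gene lay at its first promoter. Replicate 2 had another, weaker region there, with a signal of 35.6 at rank 6416. Its summit lay in the 5′ UTR of Ssl1, 2 bp from an Ssl1 TSS.

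The zinc finger gene pzg (FBgn0259785, 3L, 21286099 to 21290310, plus strand) encodes a partner of Chro that also acts with Dref. Its IDR peak (21285612 to 21286021) was the weakest top peak of the 7 genes, with a signal of 109 at rank 4076. The summit lay 282 bp upstream of the pzg TSS, inside the 5′ UTR of the divergent gene CG12974 and 145 bp from a TSS of it. Support was uneven, with 101 signal at rank 2072 in replicate 1, 110 bp from the pooled summit, and 16.0 signal at rank 15917 in replicate 2. Both libraries thus had a region here, but only that of replicate 1 was in its strongest set. The matched replicate 2 region was weak, below the median signal of 17.0 in that list. Replicate 2 had slightly stronger regions 483 bp (rank 14826) and 730 bp (rank 14689) upstream of the pzg TSS.

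**Figure D4:**
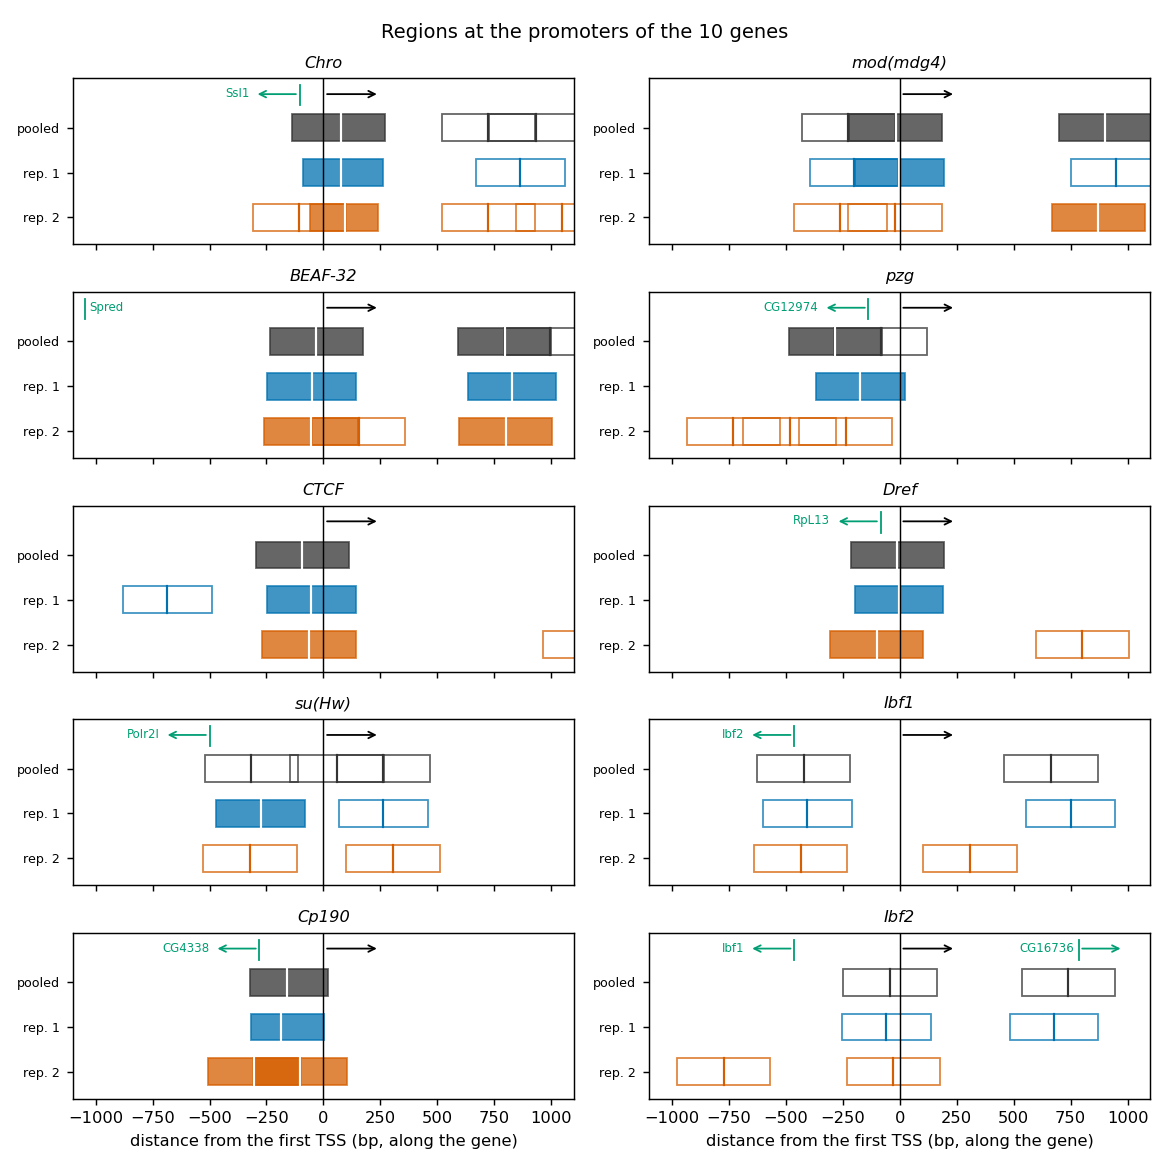
Regions of the pooled list (grey), replicate 1 (blue) and replicate 2 (orange) by distance from the first TSS of each gene, along the direction of transcription (x axis, bp); filled boxes are IDR peaks or regions in the strongest set of a replicate, open boxes are weaker regions, lines inside boxes are summits, and green arrows mark the nearest TSS of other protein-coding genes. Chro, Cp190, Dref, pzg, su(Hw) and the Ibf1 and Ibf2 pair have a divergent neighbour within 1000 bp of the first TSS. At BEAF-32 the divergent neighbour Spred starts 1046 bp from the first TSS. Boxes of Chro, BEAF-32, CTCF, Cp190, Dref and mod(mdg4) are filled in all 3 lists. For mod(mdg4) the filled box of replicate 2 has its summit 871 bp downstream of the TSS, and the replicate 2 boxes at the TSS are open.

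Several of these promoters are divergent, so a peak there belongs to both genes by position. Of the IDR peaks within 1000 bp of a protein-coding TSS, 35.1% had TSSs of both strands within that distance. In the 10 genes this was so for the peaks of Chro (with Ssl1), Cp190 (with CG4338), pzg (with CG12974) and Dref (with RpL13), for the internal mod(mdg4) peaks at ranks 375 and 3484 through pre-mod(mdg4) units that start on both strands, and for the regions of su(Hw) (with Polr2I) and of the Ibf1 and Ibf2 pair below the IDR list. The promoter peaks of BEAF-32, CTCF and mod(mdg4) had no divergent protein-coding neighbour within 1000 bp of the summit. At Chro, Dref, su(Hw), Cp190 and pzg the neighbour's TSS lay from 73 bp to 184 bp from the summit, and it was nearer than the gene's own TSS at su(Hw), Cp190 and pzg.

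Sequence words were searched on both strands at the 12 IDR peaks, within 100 bp of the summit and over the whole region. The CGATA core lay within 100 bp of 6 summits (31.4% of all IDR peaks on the arms, 37.7% of those within 1000 bp of a protein-coding TSS) and in 11 regions (44.1% and 51.8%). The DRE, TATCGATA, which is counted under CGATA as well, lay within 100 bp of 2 summits (5.05% and 7.95%), those of CTCF and the mod(mdg4) promoter, and in 4 regions (7.28% and 11.4%), with Cp190 and the first BEAF-32 peak added. TAATTA, a core bound by many homeodomains, lay within 100 bp of 2 summits (15.6% of all IDR peaks), those of pzg and the strongest mod(mdg4) peak. It lay in 4 regions (23.0%), with the mod(mdg4) promoter and the stronger BEAF-32 peak added. TGCATA lay within 100 bp of 1 summit (13.5%) and in 1 region (21.5%), as did GAGAGA, the word of the GAGA factor (15.0% and 23.7%). The E-box CAGCTG was near no summit (11.0%) and in 1 region (19.3%), and Motif 1, GGTCACAC, was near no summit (2.76%) and in no region (4.67%). With 12 peaks these counts are a description, and the absence of a word says only that its letters are not in the window.

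Genes of related proteins were counted by the same rule, from lists written with earlier results of the data known. Of 27 such genes 15 had an IDR peak (55.6%), beside 7 of the 10 genes above and 26.8% of all protein-coding genes. A region in the strongest sets of both replicates lay at 12 of the 27, beside 6 of the 10 and 19.3% of all genes. The median signal of the strongest pooled region was 138 over the 18 genes with one, beside 154 for the insulator and architectural protein genes.

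Among 10 other architectural DNA-binding proteins, 4 had an IDR peak (40.0%). Trl, the GAGA factor gene, had 6 peaks, the strongest of signal 585 at rank 109, above all of the 10 genes but Chro. M1BP, which binds Motif 1, had a peak of 225 signal at rank 1009 that it shared with CG8202. Clamp, a zinc finger protein of dosage compensation, had one of 140.2 signal, and pita, an insulator protein that brings in Cp190, one of 124 signal. The other 6, dwg, Elba1, Elba2, Elba3, insv and ZIPIC, had no region even in the pooled list.

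Of 11 genes of cohesin, condensin and associated proteins, 6 had an IDR peak (54.5%). The highest signals were at the cohesin genes SA1 (241, shared with Gas41) and SMC1 (212, shared with Hsp68), the condensin gene Cap-H2 (186, shared with MED7) and the bromodomain gene fs(1)h (135, shared with mys). No IDR peak lay at l(3)mbt or Top2, whose strongest pooled signals were 76.8 and 67.4, and no pooled region at all at the cohesin loader gene Nipped-B, at Topors or at the cohesin gene vtd.

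Among 6 partners of Dref and of interband chromatin, 5 had an IDR peak (83.3%). Trf2, the TBP-related factor that acts with Dref, had the strongest at 253 signal. The histone H3 kinase gene JIL-1, whose product acts with Chro, followed at 176 signal, then the nucleosome remodelling genes Caf1-55 (154 signal) and E(bx) (132 signal). Nurf-38 had no IDR peak and a strongest pooled signal of 25.3. These 3 lists differ in size and were not compared by a test.

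**Figure D5:**
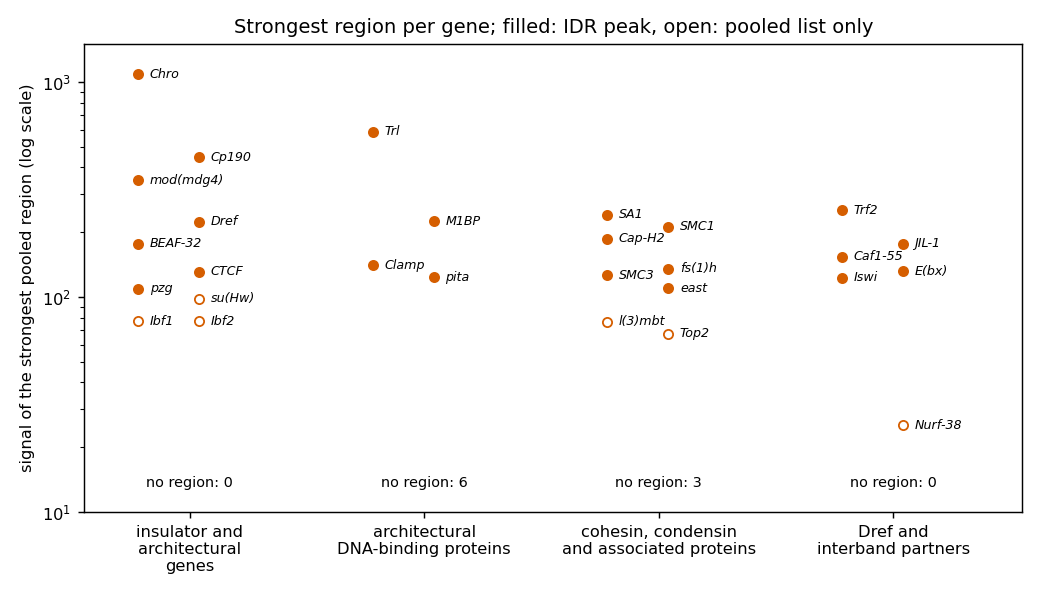
Signal of the strongest pooled region (y axis, log scale) of each insulator and architectural protein gene and of the genes of 3 related lists (x axis); filled points have an IDR peak and open points a pooled region alone, and the number of genes with no region stands below. Chro is highest at 1086, followed by Trl at 585, and 6 of the other DNA-binding proteins have no region.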

How the data were processed

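Lbe-GFP ChIP-seq regions from 1 group of 2 biological replicates were analysed in dm6. The authors deposited narrowPeak lists: regions called on each replicate, regions called on both pooled, and IDR peaks. Which aligner and peak caller were used, and in which versions, is not given in the sources used here. The deposited signal has no stated scale and was used to rank regions within a list. The −log10 q-value, as deposited, was the same, 4.058, for all 12 IDR peaks of these genes, so it gave no order. Summits were placed by adding the deposited offset to the region start. Lists in dm3 were not used, since no dm3 annotation was used here. Depth is unknown, because the files hold regions and not reads.

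Summits were assigned to genes of Ensembl release 115 (BDGP6.54) with Python 3.11.15, numpy 2.4.6 and pandas 2.3.3. Sequences came from the RefSeq release 6 genome, clipped to stretches free of annotated UTR, except the 30-base sites. The members and lists were chosen with earlier results of these data known. Every IDR peak of each gene was named, or the strongest regions where there was none, with up to 3 neighbours per promoter and up to 4 related genes with and 4 without a peak per list; beyond this rule all related genes without a peak were named, after their values were seen. Alternatives were other TSS windows, overlap in place of summits, gene bodies left out, stronger peaks, single replicates, other matching distances and other word windows. The scripts were tested on simulated data.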

Additional observations from a re-analysis of the deposited data

How the results depend on the processing

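The cause of each change below was not tested unless it is named. The count of 7 genes with an IDR peak was 7 with a TSS window of 500 bp or without gene bodies, 6 with 200 bp (pzg lost), 8 with 2000 bp or any overlap (Ibf1 added through a peak at ATP6AP2) and 5 with the stronger part of the IDR peaks alone. Over all protein-coding genes the count of 3738 was 3492 with 500 bp, 3409 without gene bodies, 3059 with 200 bp, 4275 with 2000 bp and 3940 with any overlap. The count of 7 ranged from 6 to 8 with single replicates, 8 without replicate 2 and 6 without replicate 1. The related genes ranged from 12 to 17 and all protein-coding genes from 3372 to 3978 in the same way. With the stronger part of the IDR peaks alone the related genes with a peak were 8, against 15, and all such protein-coding genes 2210, against 3738. The genes with a region in both replicates were 10 with all regions of each list, against 6, and all such protein-coding genes were 6606, against 2692; longer lists reach more genes by construction. The median replicate 1 rank of the 12 peaks, 1647.5, was 1358.0 with summits matched within 100 bp, where the pzg peak is unmatched, and 1620.0 among regions on the arms. CGATA was at 3 of the 12 peaks within 50 bp of the summit. Over all IDR peaks on the arms this share was 18.6%, and over those within 1000 bp of a protein-coding TSS 23.6%. The core was in 11 whole regions (44.1% and 51.8%), against 6 within 100 bp (31.4% and 37.7%). Of the 12 peaks 3 had no region in the replicate 2 list within 200 bp. Depth, which would say how firm a weak region is, is unknown. No paired analysis was possible because there is 1 group.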

Other observations

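Further IDR peaks lay within 2000 bp outside these genes and were not given to them. The strongest of these, of 491 signal at rank 167, lay 1350 bp upstream of the mod(mdg4) TSS and 226 bp from the TSS of tin, a homeobox gene of heart development. Its ranks were 214 in replicate 1 and 124 in replicate 2. On the other side of mod(mdg4), near aus, a peak of 119.6 signal lay 673 bp and one of 109 signal 1864 bp beyond the end of the gene. Beyond the end of Ibf1, by 189 bp, a peak of 137 signal at rank 2732 lay 49 bp from the TSS of ATP6AP2, which encodes an accessory protein of the vacuolar ATPase. Beyond the end of Dref, by 307 bp, a peak of 117 signal lay 85 bp from the TSS of CG5850. Beyond Chro, by 1969 bp, a peak of 107 signal lay 9 bp from a TSS of Arf1, a small GTPase gene. The nearest IDR peak to BEAF-32 outside the rule lay 10457 bp away, in an intron of kn, and that of su(Hw) 9865 bp away, in an intron of red.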
